A study of Mus musculus with 12 samples.

Results

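Onecut1, Onecut2, Onecut3, Neurod1, Neurod2 and Cerkl are 6 of the 23079 genes counted in ribosome-bound RNA of midbrain dopaminergic neurons of C57BL/6 mice. They were selected on measured values, because earlier results of these libraries showed most of them at higher levels in the ventral tegmental area (VTA) than in the substantia nigra pars compacta (SNpc). Their difference between the regions is therefore given as a description, with no test. All 6 passed the filter on low counts, which kept 15685 genes, although Neurod2 reached the count minimum in all VTA libraries but in only 3 of the 5 SNpc libraries.

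The study compared dopaminergic neurons of the SNpc with those of the VTA, both from the C57BL/6 strain and with no treatment named. RNA was obtained by TRAP, taken to mean translating ribosome affinity purification: tagged ribosomes of a chosen cell type are pulled out of tissue together with the RNA they carry. The sources used here do not give the promoter that drives the tag, the age and sex of the animals, or whether tissue was pooled. Of 12 columns, 2 pairs held identical counts and each pair was counted as 1 library, which left SNpc libraries 1, 2, 3, 4 and 6 and VTA libraries 1, 2, 4, 5 and 6.

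Onecut proteins bind DNA through a single cut domain joined to a homeodomain. They are known from liver and pancreas development and from the specification of motor neurons, retinal horizontal cells and several brainstem nuclei, midbrain dopaminergic neurons among them. NeuroD proteins are basic helix-loop-helix (bHLH) factors that bind E-box DNA as partners of the E proteins, drive neuronal differentiation downstream of the neurogenins, and persist in some adult neurons. Cerkl encodes ceramide kinase-like protein, a relative of ceramide kinase for which no kinase activity on ceramide has been found, and loss of its human counterpart causes a retinal dystrophy. On the mouse genome the coding transcripts of Cerkl lie beyond Neurod1 on the same strand.

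The libraries held 62356964 to 81393907 counted reads. Across all genes, 38.2% were called different between the regions (edgeR quasi-likelihood F test, p adjusted by Benjamini-Hochberg and under 0.05), 17.8% higher in SNpc and 20.4% higher in VTA, and 14.6% had every VTA library above every SNpc library. The 8 dopaminergic markers Th, Slc6a3, Slc18a2, Ddc, Nr4a2, Pitx3, En1 and Lmx1b were all present, with a summed level of 9602 to 13960 CPM (reads of a gene relative to all counted reads of its library) in SNpc and 4893 to 8028 CPM in VTA, and all 8 were called higher in SNpc. In bulk RNA such as this, fewer cells of a type and less RNA per cell cannot be told apart. The labels do not say whether each library is its own animal, so the p-values given here reflect differences among libraries that may be technical.

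Levels are CPM scaled by the TMM method of edgeR, and log2 fold changes are SNpc minus VTA, so that a negative value means more in VTA. Of the 6 genes, 4 had groups that did not overlap, with VTA above SNpc each time, namely Onecut1, Onecut2, Neurod1 and Cerkl. The choice of genes rests on this contrast, and the count is not read against the 14.6% above.

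**Figure D1:**
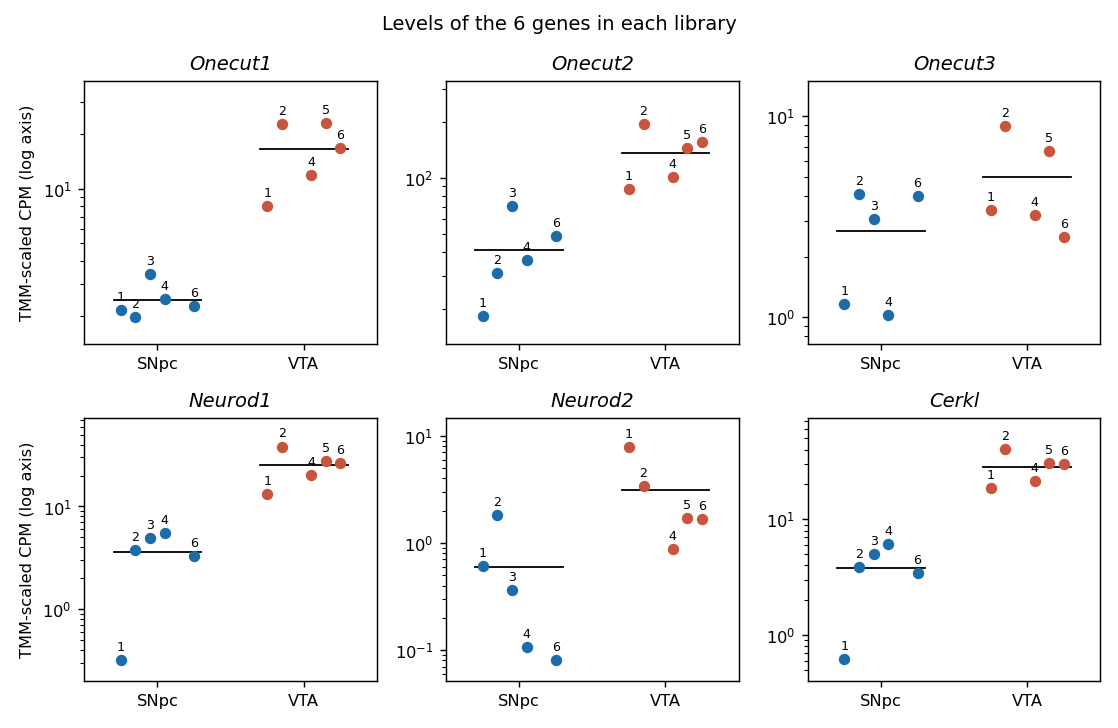
TMM-scaled CPM on a log axis for each of the 6 genes, 1 panel per gene, with 5 SNpc libraries in blue and 5 VTA libraries in red. Numbers are library numbers and horizontal bars are region means. The regions are apart for Onecut1, Onecut2, Neurod1 and Cerkl, and overlap for Onecut3 and Neurod2.

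Onecut1, also called hepatocyte nuclear factor 6 (Entrez 15379, mm10 chromosome 9, 74861921 to 74891781, plus strand, 2 coding-transcript exons), was low in every SNpc library. It stood at 2.15, 1.97, 3.40, 2.48 and 2.27 CPM in SNpc libraries 1, 2, 3, 4 and 6, and at 8.05, 22.6, 11.96, 23.1 and 16.7 CPM in VTA libraries 1, 2, 4, 5 and 6. The lowest VTA library, library 1, was above the highest SNpc library, library 3, by a factor of 2.37. Means were 2.45 ± 0.559 and 16.5 ± 6.58 CPM (SD, n = 5 each), with a log2 fold change of -2.75 and a standard error of 0.29. A non-coding transcript on the same strand, Gm20649, covers 2171 exonic bases of Onecut1, which is 52.8% of its exons. Gm20649 is no row of the count table, so its reads and those of Onecut1 cannot be told apart.

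Onecut2 (Entrez 225631, chromosome 18, 64340020 to 64400987, plus strand) was the most abundant of the family. Its levels were 18.2, 31.1, 70.8, 36.6 and 48.9 CPM in the SNpc libraries, in the same order, and 86.8, 195, 101, 145 and 155 CPM in the VTA libraries. SNpc library 3 came close to VTA library 1 without reaching it, a ratio of 1.23. Means were 41.1 ± 19.9 and 137 ± 43.6 CPM, with a log2 fold change of -1.73 and a standard error of 0.36. The gene has a single annotated transcript of 16234 bases, of which 14359 are the 3′ untranslated region. Its log2 fold change is the one of the 3 Onecut genes that a correction for transcript length moved most, to -1.35. The slope of log2 CPM on each doubling of length ran from -0.11 to -0.01 in SNpc libraries and from 0.03 to 0.14 in VTA libraries.

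Onecut3 (Entrez 246086, chromosome 10, 80494835 to 80517276, plus strand), the least studied of the family, differed less between the regions. It stood at 1.16, 4.11, 3.08, 1.02 and 3.996 CPM in SNpc and at 3.42, 8.93, 3.20, 6.70 and 2.51 CPM in VTA. SNpc libraries 2 and 6 were above VTA libraries 1, 4 and 6, and only VTA libraries 2 and 5 were above every SNpc library. Means were 2.67 ± 1.5 and 4.95 ± 2.75 CPM, with a log2 fold change of -0.89 and a standard error of 0.47. The log2 fold change was -0.57 without VTA library 2, and -1.69 once glial markers were a covariate.

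The shares of the 3 Onecut genes, set against exon length, overlapped between the regions. Onecut2 took the largest share in every library, 58.9 to 74.8% of the family's CPM per kilobase in SNpc and 56.0 to 67.6% in VTA. Onecut1 took 12.5 to 27.7% in SNpc and 24.4 to 35.2% in VTA, with SNpc library 1 alone inside the VTA range. Onecut3 took 7.0 to 26.4% in SNpc and 3.7 to 9.7% in VTA. These shares come from the same contrast that chose the genes and carry no test.

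The 3 Onecut genes also share a feature of their 3′ untranslated regions that the choice did not use. The microRNA miR-9-5p, which is abundant in neural progenitors and neurons, is known to repress Onecut mRNAs. Its mature sequence is shown with the seed, bases 2 to 8, in capitals, and below it stand all matches to that seed in Onecut1 and Onecut3, with the 7 matching bases in capitals and their first base counted from the start of the 3′ untranslated region.
mmu-miR-9-5p: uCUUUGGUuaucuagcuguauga
Onecut1, base 152: ttatagtccaaagaaACCAAAGactgaagc
Onecut1, base 757: aaaaatcacctaggtACCAAAGaacacaca
Onecut1, base 811: gcaatgattttaataACCAAAGctattttt
Onecut3, base 1276: aagatcacgtttgatACCAAAGatttcccc
Onecut3, base 1438: gtgcctttttactgaACCAAAGatgtgtgt
Onecut3, base 3006: ttctggtccttacccACCAAAGatctttcc
The microRNA is from RefSeq and the sites are from GENCODE transcripts on mm10, on the transcript's strand only.

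A match to ACCAAAG was present in 11% of 20500 3′ untranslated regions, whose median length is 808 bases. Among 2560 of a length within 0.8 to 1.25 times that of Onecut1 (2186 bases), 18.4% held a match and 0.16% held 3 or more. For Onecut3 (3133 bases) the same shares were 26% and 0.3% of 1972. Onecut2 held 14 matches, the highest number among the 25 regions of like length, where the median was 2. Neurod1, Neurod2 and Cerkl held 0, as did most regions of their length, of which 13.6%, 16.1% and 0.6% held a match, and that of Cerkl has only 48 bases. A seed match is a run of letters and no measurement of binding.

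**Figure D2:**
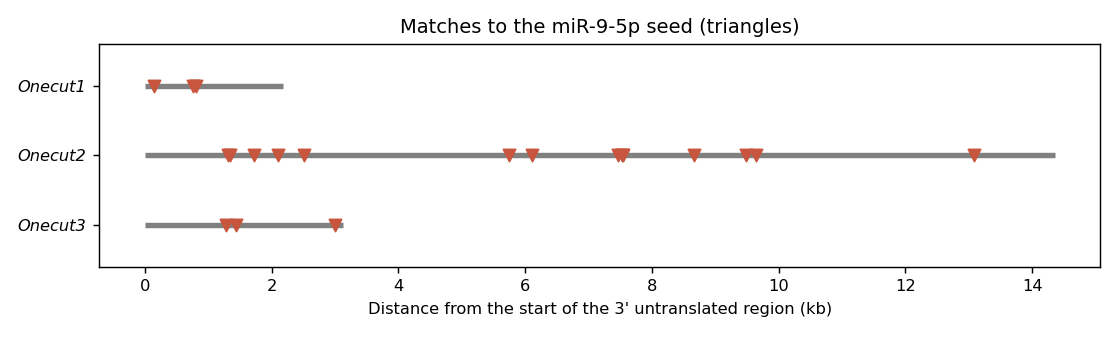
Positions of the miR-9-5p seed matches (triangles) along the 3′ untranslated regions of Onecut1, Onecut2 and Onecut3 (grey bars, to scale), as distance in kilobases from their start. Onecut1 and Onecut3 hold 3 matches each and Onecut2 holds 14, spread over most of its length.

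Neurod1 (Entrez 18012, chromosome 2, 79452521 to 79456751, minus strand), the differentiation factor also needed for pancreatic beta cells and cerebellar granule neurons, ranged widely within SNpc. It stood at 0.318, 3.73, 4.91, 5.57 and 3.32 CPM in SNpc, from 20 reads in library 1 to 366 in library 4. In VTA it stood at 13.1, 38.3, 20.02, 27.6 and 26.6 CPM, from 1133 to 2545 reads. SNpc library 1 stood far under the other SNpc libraries, and no SNpc library reached the lowest VTA library. Means were 3.57 ± 2.03 and 25.1 ± 9.41 CPM, with a log2 fold change of -2.81 and a standard error of 0.58.

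Neurod2 (Entrez 18013, chromosome 11, 98325415 to 98329648, minus strand), best known from cortical excitatory neurons, was the least abundant gene of the 6. It stood at 0.604, 1.83, 0.360, 0.107 and 0.0809 CPM in SNpc, where libraries 4 and 6 held 7 and 5 reads, and at 7.82, 3.40, 0.884, 1.72 and 1.66 CPM in VTA. SNpc library 2 was above VTA libraries 4, 5 and 6, so the groups overlapped. Means were 0.595 ± 0.720 and 3.10 ± 2.80 CPM, with a log2 fold change of -2.38 and a standard error of 0.82. Without VTA library 1, which held 677 of the gene's reads, the log2 fold change was -1.68, and without SNpc library 2 it was -3.42. With glial markers as a covariate it was -3.87.

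Cerkl (Entrez 228094, chromosome 2, 79330543 to 79456785, minus strand) followed Neurod1 library by library. It stood at 0.620, 3.90, 4.98, 6.12 and 3.46 CPM in SNpc and at 18.8, 40.7, 21.4, 30.4 and 29.8 CPM in VTA. The order of the libraries was that of Neurod1 throughout, with SNpc library 1 lowest and VTA library 2 highest. Means were 3.82 ± 2.06 and 28.2 ± 8.66 CPM, with a log2 fold change of -2.88 and a standard error of 0.46.

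The raw counts of the 2 neighbours were close to equal. Neurod1 and Cerkl had 20 and 39 reads in SNpc library 1, 229 and 239 in library 2, 314 and 318 in library 3, 366 and 402 in library 4, and 205 and 214 in library 6. In VTA they had 1133 and 1627 in library 1, 2545 and 2704 in library 2, 1269 and 1353 in library 4, 1928 and 2119 in library 5, and 1812 and 2031 in library 6. The ratio of Cerkl to Neurod1 was 1.95 in SNpc library 1 and 1.44 in VTA library 1, and lay from 1.01 to 1.12 in the other 8 libraries. Among 15627 pairs of neighbouring genes tested, 129 (0.83%) had a median ratio as near to 1. The correlation of log2 CPM over the 10 libraries was 0.993 for the pair, and 93 pairs (0.6%) were as high, where the median of all pairs was 0.095. Both conditions were met by 71 pairs. These shares describe the table, in which neighbours can overlap.

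The 2 genes are joined in 1 annotation and apart in another. In GENCODE, 11 of the 12 Cerkl transcripts, both coding ones included, begin at or below position 79428997, at least 23523 bases short of Neurod1. The remaining transcript, Cerkl-210, is non-coding and begins with an exon from 79456551 to 79456785, 34 bases upstream of the start of Neurod1. That exon holds all 201 bases of the first exon of Neurod1, which is 7.4% of the exonic bases of Neurod1 and 3.8% of those of Cerkl. The other exon of Neurod1 lies in an intron of Cerkl-210, so by its outer limits Cerkl spans the whole of Neurod1. In RefSeq the 2 genes do not touch, with 23648 bases between them. The sources used here do not give the annotation used for counting, or how a read on exons of both genes was treated. The table gives 1 number per gene, so reads inside the body of Cerkl cannot be told apart from reads at Neurod1.

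**Figure D3:**
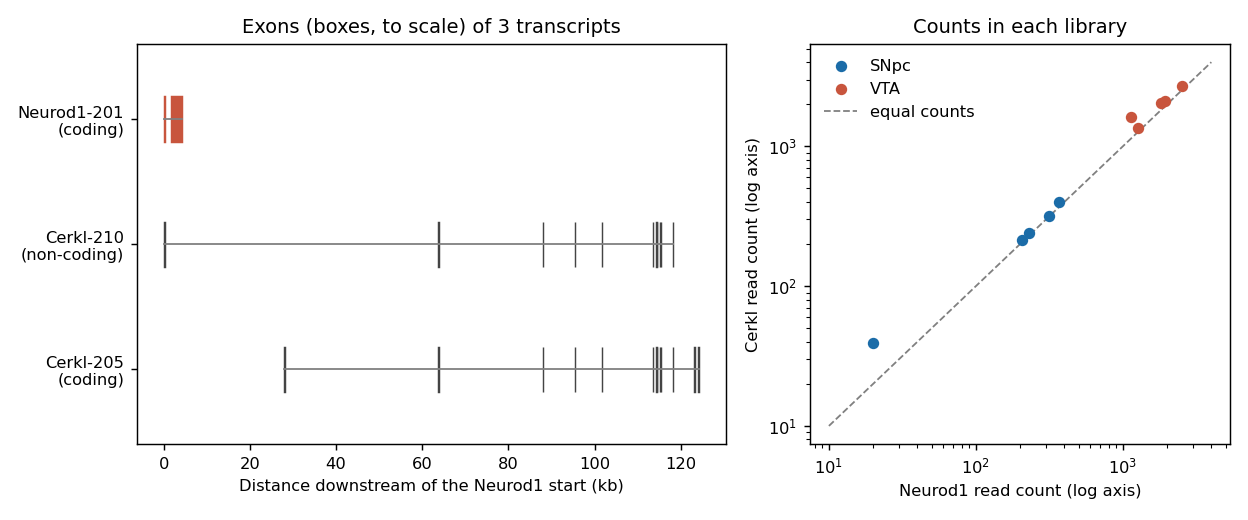
Left, exons (boxes, to scale) of Neurod1, of the non-coding transcript Cerkl-210 and of the coding transcript Cerkl-205, as distance in kilobases downstream of the Neurod1 start. Right, read counts of both genes in each of the 10 libraries on log axes, where the points of 8 libraries lie within a ratio of 1.01 to 1.12 of the dashed line of equal counts and SNpc library 1 and VTA library 1 lie above it.

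Reads of Cerkl in excess of Neurod1 were few in SNpc and more in VTA. They numbered 19, 10, 4, 36 and 9 in SNpc libraries 1, 2, 3, 4 and 6, and 494, 159, 84, 191 and 219 in VTA libraries 1, 2, 4, 5 and 6. As a level, this excess was 0.244 ± 0.190 CPM in SNpc and 3.07 ± 1.63 CPM in VTA, with no overlap. Itga4, an integrin subunit gene on the opposite strand, shares 1124 exonic bases with Cerkl, 21.3% of the exons of Cerkl. It stood at 2.31 ± 1.05 CPM in SNpc and 10.98 ± 4.86 CPM in VTA, and VTA library 1 was the highest library for both, at 19.2 CPM of Itga4 and 5.70 CPM of excess. In SNpc the 2 did not match, since library 3 had the most Itga4 (3.55 CPM) and the least excess (0.0626 CPM), and library 4 had the most excess (0.548 CPM) with 2.28 CPM of Itga4. The part of Itga4 in the count of Cerkl was not tested, and the library kit does not mark strand.

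The upstream sequences are shown for the pair that moved together and for Neurod2, from the RefSeq promoter table on mm10. Each runs 5′ to 3′ on the gene's minus strand and is cut to the bases that lie outside annotated exons. Capitals mark the single match to any motif searched.
Neurod1, chr2:79456786-79456886: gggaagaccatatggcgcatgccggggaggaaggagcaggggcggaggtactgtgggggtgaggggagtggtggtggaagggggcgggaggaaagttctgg
Cerkl, chr2:79428998-79429238: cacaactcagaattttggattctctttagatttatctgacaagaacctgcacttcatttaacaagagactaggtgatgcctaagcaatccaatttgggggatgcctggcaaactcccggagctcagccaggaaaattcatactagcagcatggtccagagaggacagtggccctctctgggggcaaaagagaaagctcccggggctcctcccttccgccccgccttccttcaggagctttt
Neurod2, chr11:98329649-98329895: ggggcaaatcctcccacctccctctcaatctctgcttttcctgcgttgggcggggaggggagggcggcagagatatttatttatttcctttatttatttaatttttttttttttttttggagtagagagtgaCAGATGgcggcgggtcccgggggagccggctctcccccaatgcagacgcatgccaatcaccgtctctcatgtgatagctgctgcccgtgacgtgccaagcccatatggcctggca
The table held 4 of the 6 genes, Onecut1 being the fourth. Windows of 300 bases, 250 before and 50 after the start, were searched on both strands for the Onecut motifs ATCAAT and ATCGAT, present in 7.5% and 0.9% of 32851 windows. The E-boxes CAGATG and CAGCTG, which NeuroD factors bind, were present in 17.2% and 16.3%. The match in Neurod2 lies 118 bases before its start, and the other 3 windows held no match.

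Per kilobase of exon, the order of the genes differed between the regions. In SNpc it ran from Onecut2 (2.53 ± 1.23 CPM per kilobase) over Neurod1 (1.31 ± 0.744), Cerkl (0.722 ± 0.390), Onecut1 (0.596 ± 0.136) and Onecut3 (0.560 ± 0.314) to Neurod2 (0.190 ± 0.229). In VTA it ran from Neurod1 (9.21 ± 3.45) over Onecut2 (8.41 ± 2.69), Cerkl (5.34 ± 1.64), Onecut1 (4.01 ± 1.60) and Onecut3 (1.04 ± 0.576) to Neurod2 (0.985 ± 0.889). The step from a gene to the next in these orders was within the SD of the higher gene, except from Onecut3 to Neurod2 in SNpc and from Onecut2 to Cerkl and Onecut1 to Onecut3 in VTA. The counts of Cerkl and Neurod1 may hold shared reads, as described above, so the place of Cerkl in these orders is uncertain.

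How much the genes varied among libraries of a region was measured with the region means removed. Neurod1 had a pooled standard deviation of 1.24 log2 units within regions, larger than in 99.6% of 1671 genes of like level, whose median was 0.40. Onecut2 had 0.62, larger than in 99.5% of 2065 genes with a median of 0.19, and Cerkl had 0.97, larger than in 98.7% of 1813 genes with a median of 0.37. Onecut3 (0.88), Neurod2 (1.45) and Onecut1 (0.50) lay above 85.6%, 80.7% and 63.1% of genes of like level. Levels of like genes were within 0.5 log2 units of the gene's mean over all 10 libraries. The difference between regions enters that mean, so these shares are not independent of the choice of genes. Neurod1 had a standard deviation of 1.65 log2 units in SNpc, where it is lower, and 0.58 in VTA. Onecut1 had 0.30 and 0.65 in turn. For Neurod1 and Cerkl the largest deviation was that of SNpc library 1, at -2.91 and -2.24 log2 units from the region mean, and their spread rested on it. Without that library the pooled standard deviation was 0.49 for Neurod1, larger than in 85.6% of genes of like level (median 0.34), and 0.41 for Cerkl, larger than in 75.4% (median 0.32). For Onecut2 it was 0.50 without that library, still larger than in 99.1%. SNpc library 1 also had the highest dopaminergic marker sum of its region (13960 CPM) and the lowest oligodendrocyte sum (254 CPM). By Neurod1 or Cerkl, SNpc libraries stood in the order of the oligodendrocyte sum and in the reverse order of the dopaminergic sum. In VTA they did not, since the oligodendrocyte sum was highest in library 1, where both genes were lowest. The part of other cells in this spread was not tested.

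With region means removed, the 15 pairs of genes were compared over the 10 libraries by a two-sided exact permutation test within regions (14400 rearrangements), adjusted over the 15 pairs by the Benjamini-Hochberg method. Neurod1 and Cerkl had r = 0.995 and rho = 1.0 (p = 6.94e-05, the smallest these permutations can give, exact permutation adjusted p = 0.00104 for both), and r = 0.991 without the 2 libraries farthest from the median. This pair passed under every library left out and every other setting tried, with adjusted p up to 0.00521. The 2 counts may hold shared reads, as described above, and the outcome would then be fixed beforehand. The test therefore cannot tell shared reads from genes that vary together.

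Onecut1 and Onecut2 rose and fell together among libraries of a region, with r = 0.718 (exact permutation p = 0.00688, adjusted p = 0.0344) and rho = 0.745 (p = 0.0142, adjusted p = 0.0896). Without the 2 libraries farthest from the median, r was 0.775. Onecut2 and Neurod1 had r = 0.801 (exact permutation p = 0.0066, adjusted p = 0.0344) and rho = 0.697 (p = 0.0239, adjusted p = 0.0896), and r was 0.61 without the 2 farthest libraries, SNpc 1 and SNpc 3. The call on Pearson r ended for both pairs when any 1 of SNpc libraries 2, 3 and 6 or of the 5 VTA libraries was left out, and for Onecut2 and Neurod1 also without SNpc library 1. The adjusted p then reached 0.146 and 0.181 in turn (exact permutation), while r stayed at 0.659 or above. With 9 libraries fewer rearrangements are possible.

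Onecut2 and Cerkl had r = 0.787 (exact permutation p = 0.0143, adjusted p = 0.0536). Neurod2 moved with none of the others, with r from -0.331 to 0.214 in its 5 pairs (exact permutation adjusted p from 0.534 to 0.616). The 6 remaining pairs, those of Onecut1 with Onecut3, Neurod1 and Cerkl and of Onecut3 with Onecut2, Neurod1 and Cerkl, had r from 0.378 to 0.549 and did not pass.

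**Figure D4:**
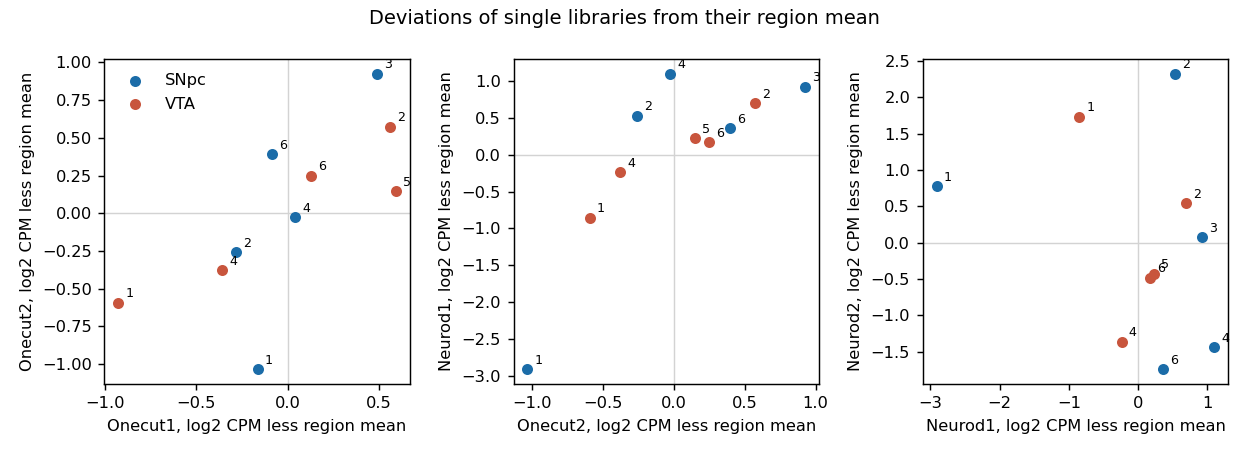
Deviation of each library from its region mean in log2 CPM, for Onecut1 against Onecut2, Onecut2 against Neurod1 and Neurod1 against Neurod2, with library numbers beside the points (SNpc blue, VTA red). The points rise together in the first and second panels, with SNpc library 1 at the lower end of the second, and show no such order in the third, where r = -0.288.

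Markers of other cells moved in part with the same libraries. Their counts of calls stand beside 20.4% of all genes called higher in VTA and 17.8% in SNpc. The glutamatergic list (Slc17a6, Slc17a7, Tbr1 and Pou4f1) summed to 18.7 to 88.9 CPM in SNpc and to 93.1 to 132 CPM in VTA, with 2 of 4 markers called higher in VTA and Tbr1 under 1 CPM in every library. The cerebellar granule list (Gabra6, Zic1, Zic2, Pax6 and Barhl1) summed to 3.59 to 33.3 CPM in SNpc and to 28.9 to 66.8 CPM in VTA, with 1 of 4 tested markers called higher in VTA. Gabra6, a defining marker of granule neurons, was at 0 in every library. The highest library of both lists was number 4 in SNpc and number 2 in VTA, which were also the highest libraries of Neurod1 and Cerkl in their regions. In VTA the lower end did not match, since both lists were lowest in library 5. Neurod1 was second highest of its region there, at 27.6 CPM, and lowest in VTA library 1. In SNpc the glutamatergic sum was lowest in library 1, as Neurod1 was. By that sum the SNpc libraries stood in the same order as by Neurod1. The granule sum was lowest in SNpc library 2. SNpc library 4 was the highest SNpc library for most of the other lists too. VTA library 2 was also the highest VTA library for the GABAergic, oligodendrocyte precursor and microglial lists. VTA library 2 had the lowest dopaminergic sum of its region. The part of other cells in these levels was not tested.

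Neurod2 was highest in VTA library 1, where hypothalamic markers summed to 43.7 CPM, serotonergic and noradrenergic markers to 31.0 CPM and endothelial markers to 68.0 CPM. Astrocyte markers summed to 62.7 CPM and oligodendrocyte markers to 808 CPM in that library. Each of these sums was the highest of its region. Over all libraries the first 3 lists ran from 8.27 to 12.04 CPM in SNpc and 16.3 to 43.7 in VTA (hypothalamic, 2 of 6 called higher in VTA), 1.55 to 7.89 and 2.12 to 31.0 (serotonergic and noradrenergic, 0 of 3 tested called by edgeR) and 1.47 to 7.22 and 5.21 to 68.0 (endothelial, 1 of 4 tested called higher in VTA). Cholinergic markers ran from 3.26 to 6.42 CPM in SNpc and 2.29 to 8.65 CPM in VTA, with 1 of 3 tested called higher in SNpc. Of all genes, 20.4% were called higher in VTA and 17.8% in SNpc, 38.2% in either direction. The 5 GABAergic markers summed to 86.4 to 329 CPM in SNpc and 174 to 288 CPM in VTA, with 0 of 5 called by edgeR. Oligodendrocyte markers summed to 254 to 1243 CPM in SNpc and to 646 to 808 CPM in VTA, with 0 of 6 called, and SNpc library 4 was the highest. Astrocyte (15.9 to 53.9 against 32.6 to 62.7 CPM), oligodendrocyte precursor (13.8 to 43.0 against 35.4 to 54.0 CPM) and microglial markers (14.3 to 35.9 against 35.1 to 51.8 CPM) overlapped between regions, with 2 of 6, 2 of 4 and 1 of 5 called higher in VTA. Onecut1 did not follow SNpc library 4, where it stood at 2.48 CPM, near its region mean. The part of these cells was not tested.

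Genes related to the 6 by family or pathway were taken from lists and read in the same fit over all genes. Of 12 other neuronal bHLH factors tested (20 listed), 7 (58.3%) were called higher in VTA, against 20.4% of all genes, and 0 in SNpc, with a median log2 fold change of -1.74 against -0.04 over all genes tested. Of the 7, Nhlh1 and Neurog2 passed the filter on low counts only through VTA, where they are high, at under 0.3 CPM in every SNpc library. Their own calls are not read, although the 58.3% includes them. Neurod6, a close relative of Neurod2 and a marker of a VTA subtype, stood at 5.79 ± 4.56 CPM in SNpc and 30.2 ± 5.56 CPM in VTA, a log2 fold change of -2.38 (edgeR adjusted p = 0.00333), with no overlap. Nhlh2, a bHLH factor of the hypothalamus, had a log2 fold change of -1.65 (edgeR adjusted p = 6.49e-04). Olig1, which marks the oligodendrocyte lineage, had -0.52 (edgeR adjusted p = 0.238), and -0.96 (adjusted p = 0.0027) without SNpc library 4. Olig1, Olig2 and Tal1 are also markers in the lists of other cells. With glial markers as a covariate 4 of the 12 were called, while calls over all genes went from 5996 to 4101 of 15685.

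Among the partners and inhibitors of bHLH factors, those called were higher in VTA apart from Hey1. Of 13 tested, 8 (61.5%) were called higher in VTA, against 20.4% of all genes, and 1 in SNpc, against 17.8%. Heyl, among the 8, passed the filter only through VTA, so its call is not read, although the 61.5% includes it. The list had a median log2 fold change of -1.08. The E proteins Tcf4 and Tcf12, with which NeuroD factors pair, stood at 73.9 ± 9.08 and 33.7 ± 6.47 CPM in SNpc and at 197 ± 47.3 and 84.9 ± 10.4 CPM in VTA. Their log2 fold changes were -1.41 (edgeR adjusted p = 2.51e-06) and -1.33 (edgeR adjusted p = 1.84e-06). With the length trend removed they were smaller, at -0.86 (edgeR adjusted p = 2.28e-05) and -0.96 (edgeR adjusted p = 2.55e-05). Hey1, a Notch target that represses transcription, was the exception at 81.9 ± 9.71 against 47.5 ± 10.7 CPM and a log2 fold change of 0.79 (edgeR adjusted p = 6.04e-04). With glial markers as a covariate 5 of the 13 were called, beside 4101 of 15685 over all genes.

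Of 13 genes known downstream of proneural factors, 5 were called higher in VTA and 0 in SNpc, with a median of -0.51. The 5 are 38.5% of the list, against 20.4% of all genes higher in VTA, and the 0 in SNpc stand against 17.8%. In either direction 38.5% of the list and 38.2% of all genes were called. Runx1t1, a transcriptional co-repressor, stood at 48.99 ± 7.63 and 158 ± 25.5 CPM, a log2 fold change of -1.69 (edgeR adjusted p = 1.96e-07). Myt1l, a repressor of non-neuronal genes, had -0.76 (edgeR adjusted p = 4.62e-04) and Ebf1 had -1.42 (edgeR adjusted p = 0.00151). With the length trend removed Myt1l had -0.40 (edgeR adjusted p = 0.0179). With glial markers as a covariate 3 of the list were called, beside 4101 of 15685 over all genes, and Ebf1 had -0.97 (adjusted p = 0.0563). Ebf3, the most abundant of the list at 212 ± 26.03 and 188 ± 11.8 CPM, had a log2 fold change of 0.17 (edgeR adjusted p = 0.176), which was -0.004 with glial markers as a covariate, 0.37 (adjusted p = 0.00831) with the length trend removed and 0.31 (adjusted p = 0.00682) without SNpc library 4.

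Of 10 tested factors that are found with Onecut proteins in other tissues (15 listed), 30% were called in either direction, against 38.2% of all genes. The median was -0.92. All 3 that were called were higher in VTA (30% against 20.4% of all genes), with 0 in SNpc (against 17.8%). They were Lhx1, a LIM homeodomain factor shared with retinal horizontal cells, at -1.56 (edgeR adjusted p = 7.23e-05), Prox1, a Prospero-type homeodomain factor, at -2.01 (edgeR adjusted p = 2.70e-04) and Nkx6-1, a motor neuron and beta cell factor. Prox1 stood at 30.6 ± 13.6 and 123 ± 22.9 CPM. Nkx6-1 was rare, at 0 to 0.250 CPM in SNpc and 0.831 to 1.63 CPM in VTA. It passed the filter only through VTA, where it is high, so its call and fold are not read, although the 30% includes it. Foxa2, which acts with Onecut1 in liver and specifies dopaminergic neurons, stood at 25.6 ± 3.77 and 24.0 ± 3.89 CPM, with 0.09 (edgeR adjusted p = 0.666) and, the length trend removed, -0.06. Lhx1, Lhx5, Pax6 and Isl1 also stand in marker lists of other neurons.

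The other cut-domain homeobox genes, relatives of the Onecut family, bind DNA through related domains. Of 4 tested, only Satb1 was called, higher in SNpc (25% against 17.8% of all genes), and the median log2 fold change was -0.02. In either direction 38.2% of all genes were called. Satb1, a chromatin organiser studied in the survival of dopaminergic neurons, stood at 484 ± 61.8 and 284 ± 30.7 CPM, a log2 fold change of 0.77 (edgeR adjusted p = 3.02e-05). Cux1 had -0.24 (edgeR adjusted p = 0.052), which passed without SNpc library 6 (adjusted p = 0.0363) or VTA library 1 (adjusted p = 0.0199) and turned to 0.21 when the length trend was removed. Cux2 had 0.19 (edgeR adjusted p = 0.26), and 0.43 (adjusted p = 0.0168) with the length trend removed.

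**Figure D5:**
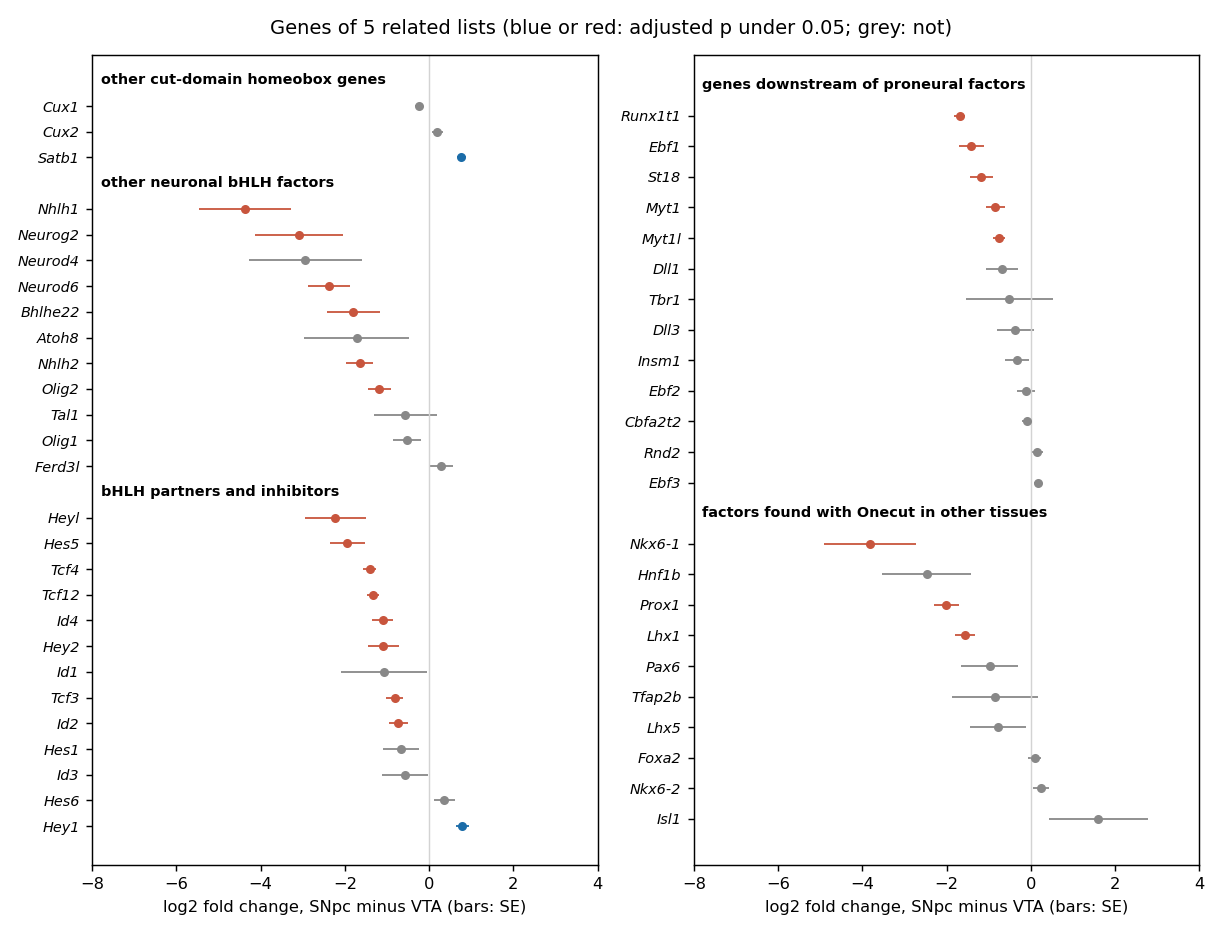
Log2 fold change (SNpc minus VTA) with its standard error for tested genes of 5 lists (2 genes are not shown). Blue points were called higher in SNpc, red points were called higher in VTA and grey points were not called (edgeR adjusted p under 0.05). In the bHLH lists called genes other than Hey1 lie on the VTA side, and among cut-domain genes only Satb1 is called.

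The enzymes of ceramide and sphingolipid metabolism, the pathway from which Cerkl takes its name, were called at about the rate of all genes. Of 30 tested (32 listed), 4 were called higher in VTA and 7 in SNpc, 36.7% against 38.2% of all genes, and the median was -0.06. Degs1, which makes ceramide from dihydroceramide, stood at 121 ± 18.4 and 67.8 ± 7.72 CPM, a log2 fold change of 0.83 (edgeR adjusted p = 5.78e-05). Kdsr, an earlier enzyme of the same path, had 0.72 (edgeR adjusted p = 5.33e-04), and the ceramide synthase listed as Lass6 had 0.64 (edgeR adjusted p = 0.00179). Ugcg, which makes glucosylceramide, stood at 139 ± 16.3 and 125 ± 6.50 CPM, with 0.15 (edgeR adjusted p = 0.225) and 0.26 (adjusted p = 0.0412) without SNpc library 4. With glial markers as a covariate 7 of the 30 were called, beside 4101 of 15685 over all genes.

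The genes most like each of the 6 were ranked by Pearson r of log2 CPM over the 10 libraries, among 11520 genes (11521 for Neurod2) whose mean log2 CPM was 1 or more. These values mix the difference between regions with the spread inside them and are a description. Nearest to Onecut1 were Arpp19 (0.991), Ctdsp2 (0.989) and Zbtb5 (0.986). Nearest to Onecut2 were Zfp324 (0.983), Skp2 (0.983) and Dhx33 (0.98). Nearest to Onecut3 were Ankfn1 (0.923), Bbc3 (0.91) and Smurf1 (0.91). After Cerkl at 0.993, Neurod1 was nearest to Slitrk6 (0.984) and Pde7b (0.981), and after Neurod1, Cerkl was nearest to Fam116a (0.987) and Gna12 (0.985). Nearest to Neurod2 were Lama3 (0.941), Cdc42ep4 (0.94) and Golga7b (0.938). In the ranking for Onecut2, Onecut1 was in place 351 and Neurod1 in place 225, so many other genes followed Onecut2 more closely.

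With region means removed, Onecut1 was nearest to Gpr45 (0.95), Arpp19 (0.927) and Ppie (0.917). Onecut2 was nearest to Odz4 (0.968), Skp2 (0.965) and Atf7 (0.964), and Onecut3 to Zfp386 (0.955), Zfp12 (0.946) and Nova1 (0.924). Neurod1 was nearest to Cerkl (0.995), Pde7b (0.963) and Usp28 (0.962), and Cerkl to Neurod1, Pde7b (0.966) and Rnf144b (0.963). Neurod2 was nearest to Lama3 (0.959), Zfp521 (0.952) and Zfp707 (0.912). Pde7b, a cyclic AMP phosphodiesterase, was near Neurod1 and Cerkl in both rankings, at 20.3 ± 11.01 CPM in SNpc and 57.7 ± 19.4 CPM in VTA. Arpp19, an inhibitor of protein phosphatase 2A, was near Onecut1 in both, at 142 ± 6.37 and 311 ± 45.2 CPM.

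Reads of the paralogs can be told apart by their sequence. The coding sequences of Onecut1 and Onecut2 were 76.8% identical, those of Onecut1 and Onecut3 71.3%, and those of Onecut2 and Onecut3 73.4%. Neurod1 and Neurod2 were 69.1% identical. The longest identical runs between their transcripts were 26, 50, 38 and 25 bases, under the read length of 100 bases.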

How the data were processed

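The authors deposited raw read counts per gene, whole numbers for 23079 Entrez genes in 12 columns. Per the submitters' processing notes, TopHat2 2.0.8 placed the single-end reads of 100 bases on mm10. The sources used here do not give the program, annotation and strand setting used for counting. The genes described and all lists were chosen with earlier results of these data known. Counts were fitted with edgeR 4.0.16 (R 4.3.3; filterByExpr by region, TMM, robust quasi-likelihood F test, no covariate) over 15685 genes and tested on simulated counts. Log2 CPM used a prior count of 2. Exon lengths and positions are from GENCODE vM21 on mm10, found for 22825 of the genes, and RefSeq supplied the names of 23008. Named from each list are the 3 genes of smallest p and the 2 of highest mean CPM, and every gene of a list of 5 or fewer, except 2 genes that are not reported here. Same-numbered SNpc and VTA libraries did not deviate together (r from -0.072 to 0.044 for numbers 1, 2, 4 and 6), and the numbers were not used as pairs. The labels do not say whether a number marks a shared animal or day, and these r values cannot settle it. Alternatives were DESeq2 1.42.0, other scalings, no filter, all 12 columns, glial markers or length as a correction, a replicate block and each library left out. Protein sequences, and upstream sequence of Onecut2 and Onecut3, are not analysed here. The glial covariate is each library's mean log2 CPM of the astrocyte and oligodendrocyte markers.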

Additional observations from a re-analysis of the deposited data

Results flagged for a closer look

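In 62 groups of 5 libraries, 8 held a library far from the others by Dixon's criterion (gap over range above 0.71), where chance marks about 1 in 20. The count ratio of Cerkl to Neurod1 was 1.95 in SNpc library 1, where the next was 1.10, and 1.436 in VTA library 1, where the next was 1.12. Cux1 was lowest in VTA library 1, at 130.7 CPM, and Satb1 in VTA library 2, at 230.8 CPM. Myt1l was highest in VTA library 2, at 275.1 CPM, and Ebf1 in VTA library 1, at 55.79 CPM. In SNpc library 4, which held the most oligodendrocyte marker RNA, Olig1 was highest, at 27.78 CPM, and Degs1 was lowest, at 88.48 CPM.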

How the results depend on the processing

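The log2 fold changes of the 6 genes kept their sign under all 19 alternatives, with ranges of -2.92 to -2.59 (Onecut1), -2.02 to -1.35 (Onecut2), -1.69 to -0.57 (Onecut3), -3.27 to -2.52 (Neurod1), -3.87 to -1.68 (Neurod2) and -3.25 to -2.61 (Cerkl). Neurod2 moved by more than the SD between libraries with glial markers as a covariate, to -3.87, and by more than its standard error without SNpc library 2, to -3.42. Onecut3 also moved by more than its standard error with glial markers as a covariate, to -1.69. So did Onecut2 with the length trend removed, to -1.348 (scale kept) and -1.365 (refitted). The glial covariate also left 4 calls among the other neuronal bHLH factors, 5 among bHLH partners, 3 among genes downstream of proneural factors and 7 among ceramide enzymes. Over all genes it gave 4101 calls in place of 5996. Calls among cut-domain genes were 2 with library totals, with 12 columns and with the length trend removed (either scale), and 1 to 2 with 1 library left out. Cux1 turned to 0.207 (scale kept) and 0.189 (refitted) and Foxa2 to -0.057 and -0.074 with the length trend removed, and Ebf3 to -0.004 with glial markers as a covariate. The cause was not tested. Member pairs passing within regions numbered 3, and 1 to 4 with 1 library left out.

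Over all genes, 4101 to 7247 were called in place of 5996. A replicate block gave 4385 calls, and no list count moved by over 1.5 times under it. Whether shared numbers pair the libraries is not known. The spread of Neurod1 and Cerkl without each library was computed after seeing the data. Depth limits Neurod2 most, with 5 to 112 reads in SNpc, and Neurod1 and Cerkl in SNpc library 1.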

Other observations

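The miR-9-2 precursor lies in the non-coding gene C130071C03Rik, which was counted as a longer RNA. It stood at 1.93 ± 0.592 CPM in SNpc and 3.05 ± 1.04 CPM in VTA (SD, n = 5 each), with overlapping groups and a log2 fold change of -0.66 (edgeR adjusted p = 0.224). Mature miR-9 was not analysed here.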
